A study of Daphnia magna with 48 samples.

Results

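Gene expression of cadmium-exposed water fleas was compared with that of their own unexposed controls, and the changes were set beside those caused by 7 organic chemicals in the same series. The cadmium comparison was taken by array title and holds 6 of the 48 arrays, with 3 arrays of animals exposed to cadmium (Cd_EC10) and 3 of their controls (Cd_CONT). Values were available for 6006 probes of Daphnia magna, a small freshwater crustacean widely used in toxicity tests. Newborn animals were kept for 96 h at the EC10 of cadmium, the concentration that immobilises 10% of animals in that time, or without it. The concentration itself, the cadmium salt and the daphnid strain are not given in the labels. RNA came from whole bodies of 4-day-old animals, 30 pooled per replicate, kept at 1 animal per 5 ml and fed green algae every other day. The labels call the 3 samples of a group biological replicates. The other groups were treated alike, each with its own controls: isobutanol (IB_EC10 and IB_CONT), 3-chloropropanol (CP_EC10 and CP_CONT), aniline (A_EC10 and A_CONT), 4-chloroaniline (CA_EC10 and CA_CONT), 3,5-dichloroaniline (DA_EC10 and DA_CONT), 2,3,4-trichloroaniline (TCA_EC10 and TCA_CONT) and 3,4-dichlorophenol (DF_EC10 and DF_CONT), with 3 arrays a group. The medium was renewed every 48 h for the anilines. No control samples are shared between chemicals, while every array carries the same reference, mixed from control and exposed samples.

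Cadmium is a metal with no known role in animal cells. It enters cells partly through calcium channels and other metal transporters, binds to the sulfhydryl groups of proteins and can take the place of zinc. Animals bind much of it in metallothioneins, small cysteine-rich proteins that metals induce, and it is known as a cause of oxidative stress and of disturbed calcium balance in daphnids. The organic chemicals are alcohols, anilines and a phenol, which share no metal chemistry with it. The deposited values do not pair probe numbers with genes, and 0 of the probe numbers were found in the RefSeq gene table of this species, so probes are reported by their number and their functions are not given.

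Each array gave the log2 ratio of a sample to the common reference for each probe. The ratios are likely sample over reference, a reading that rests on how widely varying probes balance about a reference mixed from all samples. No label settles it, and with the sign turned every rise below would read as a fall. Levels are log2 ratios, with their SD over the 3 arrays of a group. Changes are log2 differences, exposed minus control, adjusted for the dye of the sample, with the SE from limma. Called probes are those with an adjusted p under 0.05, with Benjamini-Hochberg adjustment over all 6006 probes. Exposed samples 1 and 3 and control sample 1 were labelled in Cy5 and the others in Cy3. A change can therefore differ from the plain difference of the group means, by more where the dye effect is large. The cadmium arrays were the least noisy of the series, with a median SD of 0.107 between replicates after the fit, against 0.119 to 0.202 in the 7 other experiments. The SD over probes within an array was 0.41 to 0.51 in the exposed and 0.26 to 0.30 in the control samples. Arrays correlated over probes at 0.65 to 0.75 within the exposed group, 0.46 to 0.69 within the control group and 0.35 to 0.63 between the groups. Of the 27 control rows, 0 were called by limma and 0 had an unadjusted p under 0.05, with a largest shift of 0.34.

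With cadmium 107 probes rose and 70 fell, 177 in all. That is 2.95% of the probes tested, 1.78% rising and 1.17% falling, and 571 probes (9.51%) had an unadjusted p under 0.05. The balance depended on the scaling, since quantile normalization gave 74 higher and 80 lower. Most changes were moderate, with 101 of the 177 under 2-fold, 46 rises and 30 falls of at least 2-fold, and 12 rises and 12 falls of at least 4-fold. The median rise was 0.92 and the median fall -0.84, while the median change over all probes was 0.005. For 172 of the 177 probes all 3 exposed values lay on one side of the 3 control values, which held for 19.3% of all probes. A call on these same arrays favours such a separation. The other 5 called probes, 2 rising and 3 falling, had overlapping groups. The median level of the rising probes was 0.98, 1.15 and 0.98 in the 3 exposed samples and 0.08, 0.01 and 0.06 in the 3 controls. The falling probes had median levels of -0.92, -0.85 and -0.85 in the exposed samples and -0.06, -0.03 and -0.02 in the controls. Both sets thus stood near the reference in the controls and apart from it in each of the exposed samples. The 95% confidence interval of a change had a median half-width of 0.28, and the smallest change called was 0.31. The count was 114 without exposed sample 2, the lowest of the counts that leave out 1 of the 6 arrays, while array weights gave 678 and scaling all arrays to the same median absolute value, tried after seeing the data, gave 320.

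**Figure D1:**
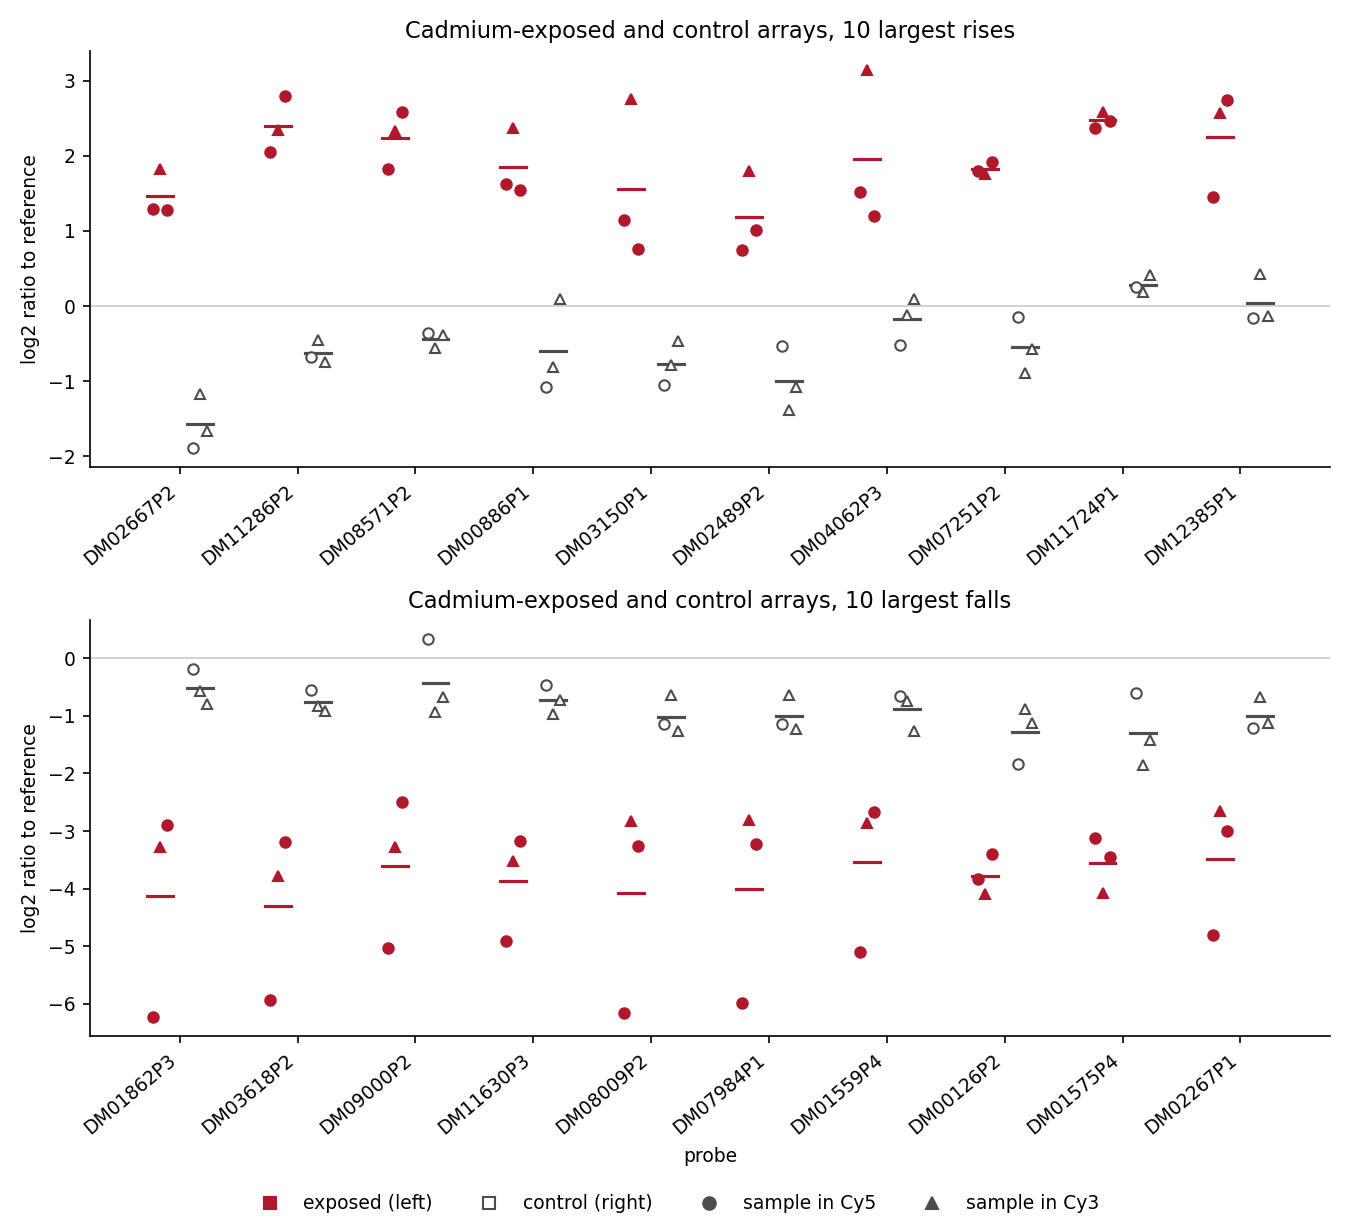
Log2 ratio to the common reference on each of the 6 cadmium arrays for the 10 largest rises (upper panel) and the 10 largest falls (lower panel). Filled red symbols on the left of each pair are exposed samples and open symbols on the right are controls, circles are samples in Cy5 and triangles in Cy3, and short lines are group means. No exposed value overlaps a control value for these 20 probes, which were chosen partly for that. Exposed sample 1 lies well below the other exposed samples in 8 of the falls.

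Dye was the one recorded technical difference between the arrays, and each dye held both groups. All 177 called probes had the same sign of difference among the Cy5 arrays as among the Cy3 arrays, against 63% of all probes. The probes were called by a dye-adjusted change on these same arrays, which favours the same sign in both dyes, so the share is a description and no separate test. The rising probes differed by a median of 0.90 in Cy5 and 0.98 in Cy3, and the falling probes by -0.88 in both. For 71 of the 177 probes the dye effect was called as well, and it was called for 35.2% of all probes. The 3 probes closest inside the threshold had changes of 0.49 for DM05168P1, 0.91 for DM07464P1 and 0.96 for DM01849P2, and adjusted p of 0.0491, 0.0467 and 0.0462 in that order. Closest outside it were DM01749P1, DM09630P1 and DM12120P1, with changes of -0.59, -0.56 and -0.52 and adjusted p of 0.0514, 0.0521 and 0.0525.

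The 4 rises with the smallest adjusted p were large and even across the samples. Probe DM11286P2 had levels of 2.05, 2.34 and 2.79 in exposed animals, against -0.67, -0.45 and -0.75 in controls. Its rise of 3.01 ± 0.25 (adjusted p = 1.89e-10) was larger than the spread within either group. Probe DM08571P2 had 1.82, 2.33 and 2.58 in exposed animals and -0.36, -0.56 and -0.38 in controls. It rose by 2.67 ± 0.21 (adjusted p = 4.74e-11). Probe DM11724P1 had 2.37, 2.58 and 2.46 in exposed animals and 0.25, 0.18 and 0.41 in controls, and its SD was 0.10 in the exposed and 0.11 in the control group. Its rise of 2.22 ± 0.17 had the smallest adjusted p of all probes, 4.56e-11. Probe DM07251P2 had 1.80, 1.76 and 1.92 in exposed animals and -0.15, -0.90 and -0.57 in controls, a rise of 2.28 ± 0.20 (adjusted p = 2.33e-10). The calls of these 4 probes, of DM12385P1 and of DM02667P2 held under every alternative that was run.

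The largest fitted rise belonged to DM02667P2, which had 1.29, 1.83 and 1.28 in exposed animals and -1.89, -1.17 and -1.66 in controls, a change of 3.11 ± 0.51 (adjusted p = 0.000106). Here the unusual level was that of the controls. The cadmium controls averaged -1.57, below the -1.22 to 2.81 of the 7 other control groups, and the exposed animals averaged 1.47, within that range. Probe DM02489P2 had 0.74, 1.80 and 1.01 in exposed animals and -0.53, -1.38 and -1.08 in controls, a rise of 2.31 ± 0.50 (adjusted p = 0.00327). Both of its group means lay within the range of the other control groups, which ran from -1.88 to 2.93. Probes DM00886P1 and DM04062P3 rose by 2.56 ± 0.58 and 2.30 ± 0.52, both with an adjusted p of 0.00602. Exposed sample 2 was the highest of the 3 exposed samples for both, at 2.37 for DM00886P1 and 3.14 for DM04062P3. Neither call held without that sample, with adjusted p of 0.0543 for DM00886P1 and 0.125 for DM04062P3.

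The largest falls were less even among the exposed samples. Probe DM01862P3 had -6.23, -3.28 and -2.90 in exposed animals, against -0.19, -0.57 and -0.79 in controls, a change of -3.76 ± 0.82 (adjusted p = 0.0038). Probe DM03618P2 had -5.92, -3.78 and -3.18 in exposed animals and -0.55, -0.83 and -0.92 in controls, a change of -3.74 ± 0.88 (adjusted p = 0.00829). All exposed samples were low for both probes, and sample 1 was lower than the others by more than 2 log2 units. Among the 12 falls of at least 4-fold, 7 had an SD above 1 in the exposed group, against 2 of the 12 rises of that size. Without exposed sample 1 DM01862P3 had a change of -2.66 (adjusted p = 0.0932) and DM03618P2 one of -2.83 (adjusted p = 0.129), and neither was called.

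The falls with the smallest adjusted p were smaller or more even. Probe DM01575P4 had -3.11, -4.08 and -3.45 in exposed animals and -0.60, -1.85 and -1.42 in controls, a change of -2.51 ± 0.28 (adjusted p = 1.78e-07). Probe DM02404P3 had -2.74, -4.14 and -2.89 in exposed animals and -0.76, -1.49 and -0.94 in controls, a change of -2.40 ± 0.29 (adjusted p = 5.84e-07). In both probes the Cy3 samples were lower than the Cy5 samples within each group, and the dye effect was called. Probe DM02411P2 had -1.21, -1.19 and -1.16 in exposed animals and -0.33, 0.09 and 0.11 in controls. Its 3 exposed values nearly coincided, with an SD of 0.02, and it fell by 1.13 ± 0.13 (adjusted p = 3.86e-07). The calls of these 3 probes held under every alternative that was run.

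The 7 other control groups give a range of unexposed levels in which the exposed and control means can be placed. A single outlying group can set an end of that range, so the position does not settle which level was unusual. Of the 107 rising probes, 99 had an exposed mean above all 7 other control means, and of the 70 falling probes 50 had one below them. Over all probes, 14.6% had an exposed mean above that range and 12.4% below it. For 100 of the 177 called probes only the exposed mean lay outside, for 9 only the control mean, for 49 both and for 19 neither, where over all probes the shares were 16.9%, 7.04%, 10% and 66% in the same order. Those 100 were 69 rises and 31 falls, a split that was 39 and 29 with quantile normalization and 90 and 64 with arrays scaled to the same median absolute value. Cadmium-exposed animals had the highest mean of all 16 groups for 81 of the 107 rising probes, where 7.51% of all probes had their highest mean there. They had the lowest mean for 20 of the 70 falling probes, against 5.91% of all probes. Because the called probes were chosen for a difference between the cadmium groups, shares above those of all probes are partly built in.

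Many of the cadmium changes were also made by organic chemicals. Of the 177 called probes, 120 were called in the same direction with at least 1 of the 7, 72 rising and 48 falling, a share of 67.8%, where 20.7% of all probes were called with at least 1 organic chemical in either direction. Quantile normalization gave 35 shared rises and 38 shared falls. Isobutanol shared 83 of the 177 (46.9% of the cadmium list and 10.9% of its own 759 calls), beside a background of 12.6% of all probes called with isobutanol. 3-Chloropropanol shared 77 (43.5% of the cadmium list and 14.7% of its own 524), beside a background of 8.72%. 3,4-Dichlorophenol shared 62 (35% of the cadmium list and 36.3% of its own 171), beside a background of 2.85%. 2,3,4-Trichloroaniline shared 50 (28.2% of the cadmium list and 21.4% of its own 234), beside a background of 3.9%. Each of these 4 lists held more of the cadmium probes than its share of all probes, and the dichlorophenol list was the one with the largest part in common with cadmium.

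The 3 anilines with fewer chlorines shared almost nothing with cadmium at this threshold. 4-Chloroaniline shared DM07251P2, which is 1 of the 2 probes that limma called with it (0.0333% of all probes). Aniline and 3,5-dichloroaniline had 0 called probes by limma, with 371 and 265 at an unadjusted p under 0.05 in that order, so a shared call was not possible for them. The signs of the changes did not depend on a call in the other chemical. Of the 177 cadmium probes, 161 had the same sign with 3,4-dichlorophenol, 159 with 3-chloropropanol, 145 with isobutanol and 144 with 2,3,4-trichloroaniline, beside 54.7%, 59.1%, 58.7% and 53.1% of all probes. With 4-chloroaniline it was 111, with 3,5-dichloroaniline 100 and with aniline 78, beside 54.4%, 45.1% and 49% of all probes. Over all 6006 probes, which share the reference and are not independent, the cadmium changes correlated with those of 3-chloropropanol at r = 0.49, 3,4-dichlorophenol at 0.48, isobutanol at 0.45 and 2,3,4-trichloroaniline at 0.36. The correlation was 0.15 with 4-chloroaniline, 0.03 with 3,5-dichloroaniline and -0.09 with aniline.

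**Figure D2:**
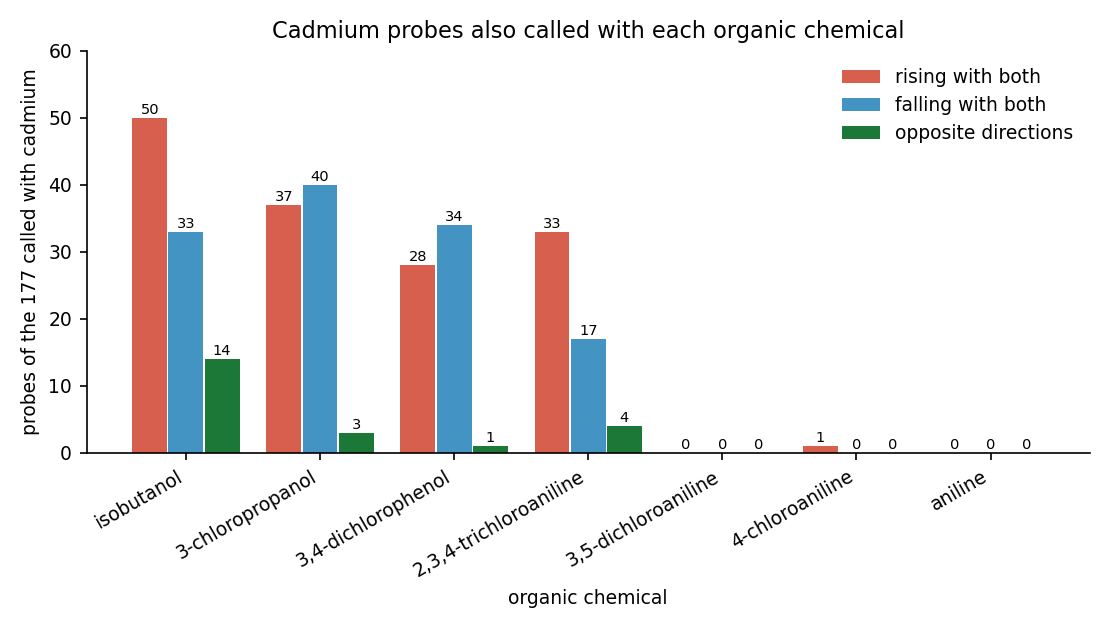
Number of the 177 probes called with cadmium that were also called with each organic chemical. Bars give probes rising with both, falling with both and moving in opposite directions, and the largest bar is the 50 probes that rose with cadmium and with isobutanol.

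The shared falls and the shared rises were spread differently over the chemicals. With 2,3,4-trichloroaniline 33 rises and 17 falls were shared, where it raised 2.3% and lowered 1.6% of all probes. With isobutanol 50 rises and 33 falls were shared, beside 6.29% and 6.34% of all probes. With 3-chloropropanol 37 rises and 40 falls were shared, beside 5.13% and 3.6%, and with 3,4-dichlorophenol 28 rises and 34 falls, beside 1.28% and 1.57%. By combination, 24 probes were shared with isobutanol, 3-chloropropanol, 2,3,4-trichloroaniline and 3,4-dichlorophenol together, 18 with these except 2,3,4-trichloroaniline, 17 with isobutanol alone, 12 with 3-chloropropanol alone and 11 with 3-chloropropanol and 3,4-dichlorophenol. The shares of all probes called with these combinations are not given here, so the counts by combination are a description. The 3-chloropropanol arrays had the largest median SD between replicates after the fit, 0.202. When that chemical was not counted, 108 of the 120 probes were still shared. The median change of the 72 shared rises was 0.91 with cadmium, 0.74 with isobutanol, 0.53 with 3-chloropropanol, 0.54 with 2,3,4-trichloroaniline and 0.53 with 3,4-dichlorophenol. For the 48 shared falls it was -1.02 with cadmium, -0.70 with isobutanol, -1.14 with 3-chloropropanol, -0.37 with 2,3,4-trichloroaniline and -0.96 with 3,4-dichlorophenol. With aniline, 4-chloroaniline and 3,5-dichloroaniline the medians of both sets lay between -0.05 and 0.16. These medians are over probes chosen by their calls, so the chemicals that made the calls have larger values by the choice.

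In all, 9 rises and 15 falls were called with cadmium and with each of isobutanol, 3-chloropropanol, 2,3,4-trichloroaniline and 3,4-dichlorophenol. These counts stand without the share of all probes called with the same chemicals together, which is not given here. The falls were the deepest changes that cadmium made: 8 of the 12 falls of at least 4-fold were among the 15, and 11 of the 12 were called with at least 1 organic chemical. The median level of the 15 was -4.80, -2.65 and -2.50 in exposed samples 1, 2 and 3, and -0.47, -0.64 and -0.73 in the controls. Exposed sample 1 was the lowest of the 3 for 14 of the 15 probes. The median change of the 15 was -2.49 with cadmium, -4.84 with isobutanol, -4.80 with 3-chloropropanol, -2.21 with 2,3,4-trichloroaniline and -3.05 with 3,4-dichlorophenol. With aniline, 4-chloroaniline and 3,5-dichloroaniline the median change was 0.35, 0.05 and -0.24, and none of these 15 probes was called there. For aniline and 3,5-dichloroaniline, with 0 called probes, that was fixed in advance.

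Probe DM01862P3, whose cadmium values are given above, changed by -6.76 ± 0.82 with isobutanol (adjusted p = 2.16e-07), -6.15 ± 0.82 with 3-chloropropanol (adjusted p = 5.99e-06), -2.97 ± 0.82 with 2,3,4-trichloroaniline (adjusted p = 0.0318) and -4.24 ± 0.82 with 3,4-dichlorophenol (adjusted p = 0.00152). The 3,4-dichlorophenol-exposed samples were far apart for this probe, with a mean of -4.72 and an SD of 3.19. The cadmium change of DM01862P3, -3.76, was not told apart from any of the 7 organic changes by limma. Probe DM08009P2 had -6.15, -2.83 and -3.26 in exposed animals and -1.14, -0.64 and -1.27 in controls, a change of -3.06 ± 0.75 (adjusted p = 0.0112). Probe DM07984P1 had -5.99, -2.81 and -3.22 in exposed animals and -1.14, -0.64 and -1.22 in controls, a change of -3.00 ± 0.74 (adjusted p = 0.0125). These 2 probes ran nearly together, with a mean absolute difference of 0.069 over all 48 arrays, against a median of 1.20 over the 703 pairs of the 38 named probes that were called, and whether they lie on the same gene is not known here. The remaining falls of at least 4-fold in this group were -3.42 ± 0.73 for DM09000P2, -3.37 ± 0.75 for DM11630P3, -2.79 ± 0.67 for DM01559P4 and -2.49 ± 0.60 for DM02267P1, with exposed sample 1 lowest each time, at -5.03, -4.91, -5.09 and -4.80. Without that sample none of these 8 probes kept its call with cadmium, with changes of -1.84 to -2.83 and adjusted p of 0.0642 to 0.223. With the 6 cadmium arrays alone, 7 of the 8 missed the threshold as well, DM11630P3 being the exception, and 5 of the 8 missed it with arrays scaled to the same SD, 4 without control sample 2 and 2 with quantile normalization.

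The 9 rises in common were smaller and more even. Their median level was 1.11, 1.24 and 1.08 in the exposed samples and 0.11, -0.06 and 0.14 in the controls. Probe DM06706P2 had 1.25, 1.11 and 1.08 in exposed animals and -0.09, -0.31 and -0.11 in controls, a rise of 1.32 ± 0.18 with cadmium (adjusted p = 3.94e-06). The same probe rose with isobutanol by 1.00, with 3-chloropropanol by 0.81, with 2,3,4-trichloroaniline by 0.87 and with 3,4-dichlorophenol by 0.91. Probe DM07969P3 had 1.11, 1.24 and 1.08 in exposed animals and -0.12, -0.24 and 0.08 in controls, a rise of 1.28 ± 0.18 (adjusted p = 1.34e-05). The pair differed by a mean of 0.105 over the 48 arrays. Probe DM06837P1 had 1.68, 1.65 and 1.66 in exposed animals and 0.40, 0.40 and 0.77 in controls, a rise of 1.21 ± 0.19 (adjusted p = 8.15e-05). Its 3 exposed values almost coincided. With isobutanol it rose by 2.21 ± 0.19, and the cadmium rise was smaller by 1.00 (adjusted p of the difference = 0.0332). The cadmium call of DM06837P1 ended with quantile normalization (0.56, adjusted p = 0.271). Probe DM08429P1 rose by 1.18 ± 0.26 (adjusted p = 0.00449), and it was no longer called after leaving out exposed sample 1, exposed sample 2 or control sample 3, or with the 6 cadmium arrays alone (adjusted p = 0.196). For DM08429P1 the rise was 0.55 with arrays scaled to the same SD (adjusted p = 0.5) and 0.41 with quantile normalization (adjusted p = 0.723).

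Some shared probes moved further with cadmium than with the organic chemicals. DM08571P2 belongs to the 9 common rises, and its rise of 2.67 with cadmium stood beside 1.82 ± 0.21 with 2,3,4-trichloroaniline, 1.25 ± 0.21 with 3,4-dichlorophenol, 0.93 ± 0.21 with 3-chloropropanol and 0.72 ± 0.21 with isobutanol. The cadmium change exceeded the mean of the 7 organic changes by 1.83 ± 0.23 (adjusted p = 2.09e-06) and differed from 6 of the 7, all but 2,3,4-trichloroaniline (a difference of 0.85, adjusted p = 0.241). DM11724P1 rose by 1.56 ± 0.17 with isobutanol, 1.24 ± 0.17 with 3,4-dichlorophenol and 0.89 ± 0.17 with 3-chloropropanol, against 2.22 with cadmium. Its cadmium change exceeded the mean of 7 by 1.59 ± 0.18 (adjusted p = 4.58e-07) and differed from 5 of the 7. It was not told apart from isobutanol (0.66, adjusted p = 0.181) or 3,4-dichlorophenol (0.97, adjusted p = 0.0938). Among the chemicals sharing the rise only 3-chloropropanol differed (1.33, adjusted p = 0.00245). Exposed animals in the cadmium experiment had the highest level of all 16 groups for both probes.

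The falls of DM01575P4 and DM02404P3 were shared with 3-chloropropanol and 3,4-dichlorophenol only, as far as calls go. DM01575P4 changed by -2.24 ± 0.28 with both, and DM02404P3 by -1.96 ± 0.29 and -2.09 ± 0.29, close to the cadmium changes of -2.51 and -2.40. With isobutanol the changes were -0.71 ± 0.28 and -0.30 ± 0.29, and the cadmium change differed from them (adjusted p = 0.00553 for DM01575P4 and 0.00131 for DM02404P3). Differences from the mean of 7 were -1.73 ± 0.30 and -1.76 ± 0.31, both with an adjusted p of 0.000682, and neither passed without the dye covariate, with arrays scaled to the same SD, with quantile normalization or against the mean of isobutanol, 3-chloropropanol, 2,3,4-trichloroaniline and 3,4-dichlorophenol.

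Across all shared calls, cadmium did not have the larger change as a rule. The cadmium change was the larger in size for 30 of the 83 probes shared with isobutanol, 35 of the 77 shared with 3-chloropropanol, 28 of the 62 shared with 3,4-dichlorophenol and 32 of the 50 shared with 2,3,4-trichloroaniline. The difference itself was called for 6, 2, 1 and 0 of them, in that order. For 64 of the 177 cadmium probes limma found no difference from any of the 7 organic chemicals, which does not show that the changes were equal.

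**Figure D3:**
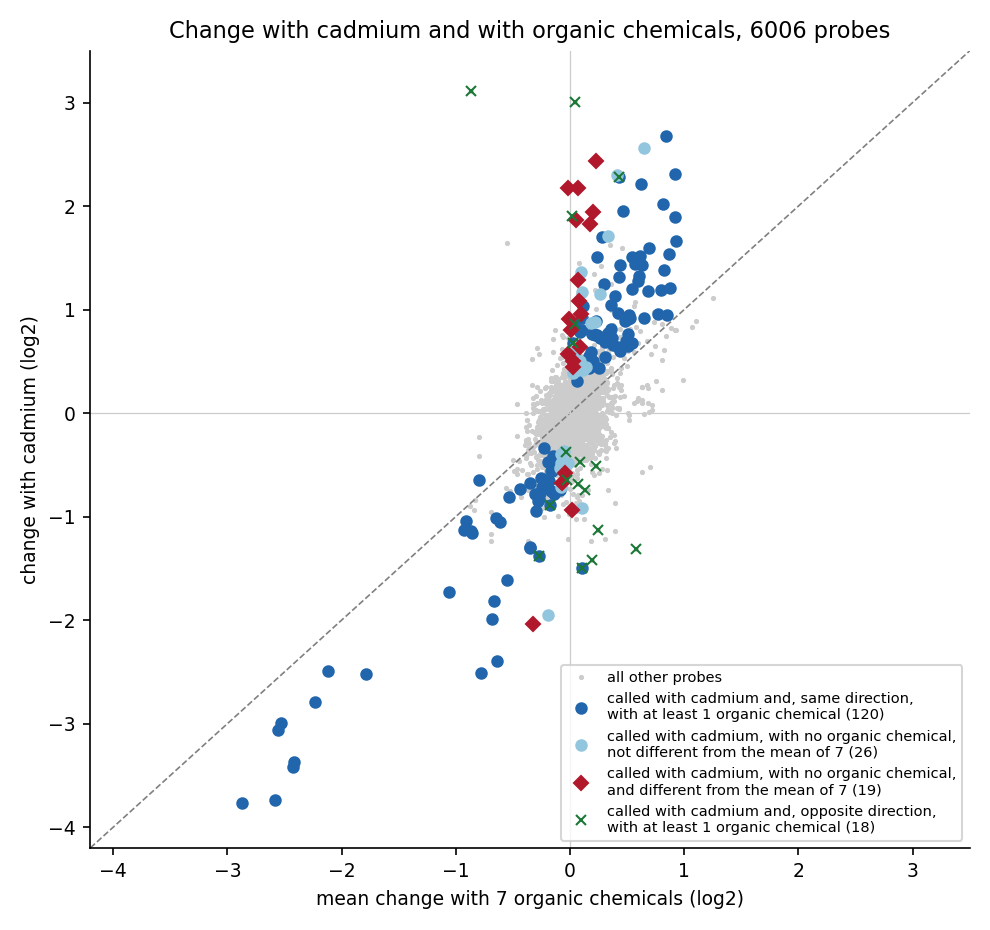
Change with cadmium (vertical axis, log2, exposed minus control) against the mean change with the 7 organic chemicals (horizontal axis, log2) for 6006 probes, with a dashed line of equal change. Dark blue probes were called in the same direction with at least 1 organic chemical, light blue and red probes with none, the red ones also differing from the mean of 7, and green crosses mark the 18 probes called in opposite directions, 6 of which are also dark blue. The 8 falls of at least 4-fold called with 4 organic chemicals lie 0.37 to 1.15 below the line. Their mean of 7 includes the 3 less chlorinated anilines, with which none of them was called. DM01575P4 and DM02404P3 lie 1.73 and 1.76 below the line. The red probes lie near a mean organic change of 0.

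The difference between the cadmium change and the mean of the 7 organic changes was called on 56 probes (0.932% of those tested), 33 higher (0.549%) and 23 lower (0.383%) with cadmium. Of the 56, 52 were also called with cadmium against its control, and 23 of these were shared with an organic chemical in the same direction. The other 4, DM01276P2, DM06040P4, DM09744P2 and DM05953P1, were named because they are few, and had cadmium changes of 1.64, -0.37, -0.44 and -0.87 that did not pass. With quantile normalization 30 probes were called, 14 higher and 16 lower. Taken chemical by chemical, the cadmium change differed from that of isobutanol on 212 probes (3.53%), of 3-chloropropanol on 32 (0.533%), of 2,3,4-trichloroaniline on 43 (0.716%) and of 3,4-dichlorophenol on 8 (0.133%). It differed from that of aniline on 78 (1.3%), of 3,5-dichloroaniline on 72 (1.2%) and of 4-chloroaniline on 43 (0.716%), and from at least 1 of the 7 on 308 (5.13%). Only DM11286P2 and DM02411P2 differed from all 7 among the probes called with cadmium.

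Of the 177 called probes, 45 were called with none of the 7 organic chemicals, 32 rising and 13 falling. Missing the threshold elsewhere does not set cadmium apart, so the difference from the mean of 7 was required too, and it was called on 19 of the 45, with 15 rises and 4 falls. For the other 26, 17 rising and 9 falling, the difference was not called. The mean of 7 includes aniline, 3,5-dichloroaniline and 4-chloroaniline, which had 0, 0 and 2 called probes. Against the mean of isobutanol, 3-chloropropanol, 2,3,4-trichloroaniline and 3,4-dichlorophenol the count was 13, with 10 rises and 3 falls. Of these 13 probes, 12 were among the 19. In all 19 probes each of the 7 organic changes was nearer to 0 than the cadmium change, and the largest organic change among them was 1.28 in size. The cadmium change differed singly from 1 to 6 of the 7 organic chemicals, with a median of 3. In 11 of the 19, all 7 organic changes had an unadjusted p of at least 0.05, and all 11 were rises. The count of 19 was 6 without exposed sample 2, of which 5 were among the 19, and it was 12 without control sample 1 and 12 without control sample 2. It was 29 without the 3-chloropropanol experiment, 65 with array weights and 79 with arrays scaled to the same median absolute value. The lead of the rises among these probes depended on the scaling. The 15 rises and 4 falls were 8 and 10 with quantile normalization, 15 and 8 with arrays scaled to the same SD and 47 and 32 with the same median absolute value. The 32 rises and 13 falls called with none of the 7 were 37 and 38, 30 and 25, and 93 and 76 under these scalings in the same order.

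The 15 rises seen with cadmium alone had a median level of 0.99, 1.26 and 0.82 in the 3 exposed samples and 0.05, -0.07 and 0.01 in the controls. All 15 exposed means lay above the range of the 7 other control groups, and for 14 of the 15 cadmium-exposed animals had the highest level of the 16 groups. Over all probes that share was 7.51%. Their median change was 1.08 with cadmium, 0.27 with 3,4-dichlorophenol, 0.22 with 3-chloropropanol, 0.12 with isobutanol, 0.06 with 2,3,4-trichloroaniline, 0.05 with 4-chloroaniline, -0.02 with 3,5-dichloroaniline and -0.15 with aniline. The sign was positive in 14 of the 15 probes with 3,4-dichlorophenol and in 13 with 3-chloropropanol, but in 2 of the 15 with aniline. The cadmium levels and these organic changes are part of what chose the probes. They and the share of all probes beside them are given as a description.

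Among these rises DM12385P1 differed from the most chemicals together with DM13929P3. DM12385P1 had 1.45, 2.56 and 2.74 in exposed animals and -0.16, 0.43 and -0.13 in controls. It rose by 2.18 ± 0.31 with cadmium (adjusted p = 1.39e-05), while the 7 organic changes lay between -0.55 and 0.47. The difference from their mean was 2.19 ± 0.34 (adjusted p = 0.000106), and 6 of the 7 single differences were called, all but that from 3,4-dichlorophenol (1.82, adjusted p = 0.0819). Probe DM13929P3 had 1.53, 3.00 and 2.03 in exposed animals and -0.10, 0.62 and 0.87 in controls, a rise of 1.87 ± 0.25 (adjusted p = 4.08e-06). Its organic changes lay between -0.23 and 0.46, and the difference from the mean was 1.82 ± 0.27 (adjusted p = 5.59e-05), which was lost with quantile normalization (1.12, adjusted p = 0.0542). Probe DM08081P2 had 1.19, 2.92 and 2.74 in exposed animals and -0.20, 0.39 and 0.32 in controls, a rise of 2.17 ± 0.40 (adjusted p = 0.00063). Exposed sample 1 was the lowest of the 3 for DM12385P1, DM13929P3 and DM08081P2, and no exposed value reached a control value. DM08081P2 had a difference of 2.10 ± 0.43 from the mean of 7 (adjusted p = 0.00545), which did not pass without exposed sample 2 (1.80, adjusted p = 0.111) or with quantile normalization (1.52, adjusted p = 0.168). The cadmium call of DM08081P2 itself was lost with quantile normalization (adjusted p = 0.0577) and with the 6 cadmium arrays alone (adjusted p = 0.0539).

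Probe DM02238P2 had 1.82, 2.40 and 1.34 in exposed animals and 0.38, -0.60 and -0.41 in controls, a rise of 1.94 ± 0.35 (adjusted p = 0.000484). It differed from the mean of 7 by 1.74 ± 0.38 (adjusted p = 0.01) and singly from aniline only, and the difference did not pass without exposed sample 2 (1.28, adjusted p = 0.248), without control sample 2 (1.61, adjusted p = 0.0748) or with quantile normalization (1.35, adjusted p = 0.0911). The cadmium call of DM02238P2 was lost with the 6 cadmium arrays alone (adjusted p = 0.0678). Probe DM03150P1 had 1.14, 2.75 and 0.76 in exposed animals and -1.04, -0.79 and -0.47 in controls, a rise of 2.43 ± 0.53 (adjusted p = 0.00383). The exposed values were far apart, with an SD of 1.06. The difference of DM03150P1 from the mean of 7 was 2.21 ± 0.57 with an adjusted p of 0.0469, and it was lost in 9 of 16 alternatives, among them leaving out exposed sample 1 or 2 or any 1 of the 3 controls, no dye covariate and quantile normalization. The change with cadmium itself did not pass without exposed sample 2 (1.88, adjusted p = 0.101). The other 10 rises lay between 0.45 for DM01854P2 and 1.82 for DM02683P2.

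The 4 falls seen with cadmium alone were smaller, apart from DM01654P4. That probe had -2.25, -2.46 and -2.06 in exposed animals and -0.25, 0.21 and -0.18 in controls, a change of -2.04 ± 0.38 (adjusted p = 0.000686). It was the one of the 4 whose exposed mean lay below the range of the other control groups. With 3,4-dichlorophenol it changed by -1.28 ± 0.38 (adjusted p = 0.0618), and its difference from the mean of 7, -1.72 ± 0.41 (adjusted p = 0.0241), did not pass without exposed sample 2 or without control sample 1 or 2, with arrays scaled to the same SD (-1.38), with quantile normalization (-0.95) or against the mean of isobutanol, 3-chloropropanol, 2,3,4-trichloroaniline and 3,4-dichlorophenol (-1.50). Probe DM08107P2 had -0.11, -0.59 and -0.51 in exposed animals and 0.57, 0.28 and 0.52 in controls, a change of -0.94 ± 0.18 (adjusted p = 0.00108). Probe DM06227P1 had -0.50, -0.70 and -0.47 in exposed animals and 0.13, 0.13 and 0.14 in controls, a change of -0.68 ± 0.12 (adjusted p = 0.000256). For both probes it was the control mean that lay outside the other control groups, above them, and the exposed mean lay inside. For DM06227P1 the margin was small, 0.13 against a highest other control mean of 0.08. The range for DM06227P1 began at -1.14, the mean of the isobutanol controls. Probe DM07499P1 had -0.55, -0.46 and -0.75 in exposed animals and -0.08, 0.08 and 0.24 in controls, a change of -0.58 ± 0.11 (adjusted p = 0.00113), with both means inside that range. The difference from the mean of 7 ended without exposed sample 2 for DM06227P1 (-0.50, adjusted p = 0.142) and for DM07499P1 (-0.50, adjusted p = 0.142). For DM07499P1 it was lost in 8 of 16 alternatives, among them no dye covariate (adjusted p = 0.115), arrays scaled to the same SD (0.164), quantile normalization (0.0565) and the replicate block (0.106), while for DM06227P1 it was lost in that 1. For DM08107P2 it was lost without the dye covariate (adjusted p = 0.0619).

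**Figure D4:**
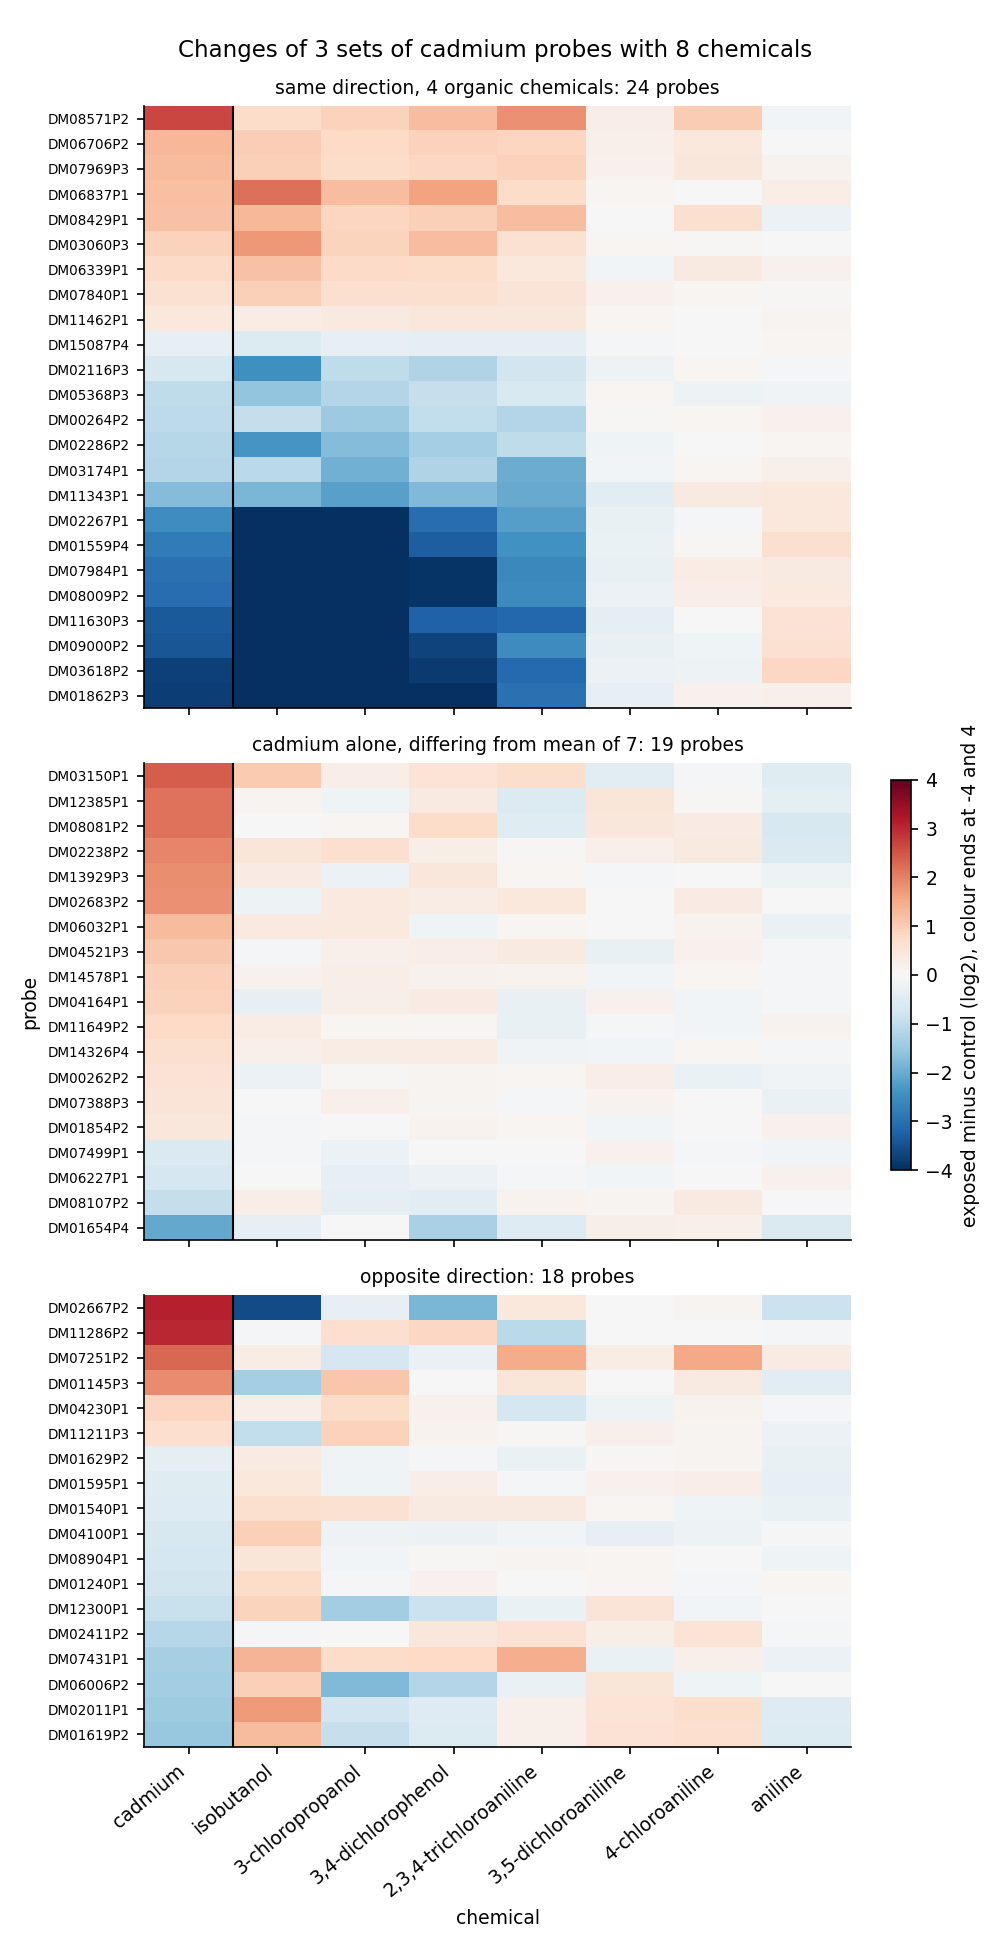
Change (log2, exposed minus control, red for higher and blue for lower, colour ending at -4 and 4) with cadmium in the first column and 7 organic chemicals in the others, for 3 sets of probes called with cadmium. The upper 24 probes move the same way with 4 organic chemicals, and none but DM08571P2, at 1.00 with 4-chloroaniline, passes 1 in size with the 3 less chlorinated anilines. For each of the 19 in the middle the cadmium column holds the largest change in size, 10 of them under 1, and the lower 18 change colour between cadmium and at least 1 organic chemical.

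Cadmium moved 18 probes against at least 1 organic chemical, with 6 rises and 12 falls. Over all 6006 probes, 377 (6.28%) were called with an organic chemical against the sign of their cadmium change, and nothing particular to the cadmium probes is read from the count of 18 among 177. Of the 18, 6 were called in the same direction with another organic chemical as well, and 12 were not. Isobutanol was the opposing chemical for 14 probes (7.91%, beside 3.73% of all probes), 2,3,4-trichloroaniline for 4 (2.26%, beside 0.982%), 3-chloropropanol for 3 (1.69%, beside 1.85%) and 3,4-dichlorophenol for 1 (0.565%, beside 0.233%). The difference of the changes was called in each of these cases. The count was 8 with arrays scaled to the same SD (6 rises and 2 falls), 9 with quantile normalization (5 rises and 4 falls) and 170 with array weights, and the same median absolute value gave 9 rises and 8 falls.

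The opposing probes include 3 of the 12 rises of at least 4-fold. DM11286P2, with the rise of 3.01 given above, fell by 1.07 ± 0.25 with 2,3,4-trichloroaniline (adjusted p = 0.0117), where exposed animals stood at -0.90 ± 0.03 and controls at 0.17 ± 0.41 (SD, n = 3 each). Those controls had the highest mean of the 7 organic control groups, which ran from -0.92 to 0.17, with the aniline controls close at 0.16. The trichloroaniline-exposed mean lay within that range. With the other 6 organic chemicals the changes of DM11286P2 lay between -0.05 and 0.83, none of them called. The cadmium change of DM11286P2 exceeded the mean of 7 by 2.97 ± 0.27 (adjusted p = 5.32e-09), and the 7 single differences had adjusted p of 1.48e-09 to 0.000591. DM02667P2 fell by 3.58 ± 0.51 with isobutanol (adjusted p = 3.98e-06), where exposed animals stood at -0.69 ± 0.09 and controls at 2.81 ± 0.19 (SD, n = 3 each). Those isobutanol controls were the highest of the 16 groups, far above the next highest control mean of 1.12 (3,5-dichloroaniline). The cadmium controls were the lowest group, at -1.57, with the 2,3,4-trichloroaniline controls close at -1.22. DM02667P2 also fell by 1.81 ± 0.51 with 3,4-dichlorophenol (adjusted p = 0.0444). DM07251P2 rose with cadmium by 2.28, with 4-chloroaniline by 1.53 ± 0.20 (adjusted p = 2.44e-05) and with 2,3,4-trichloroaniline by 1.49 ± 0.20 (adjusted p = 1.11e-05). It fell by 0.67 ± 0.20 with 3-chloropropanol (adjusted p = 0.0262). The cadmium rise of DM07251P2 was not told apart from those with the 2 anilines (differences of 0.76 and 0.80, adjusted p = 0.324 and 0.235) and differed from the other 5 chemicals.

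**Figure D5:**
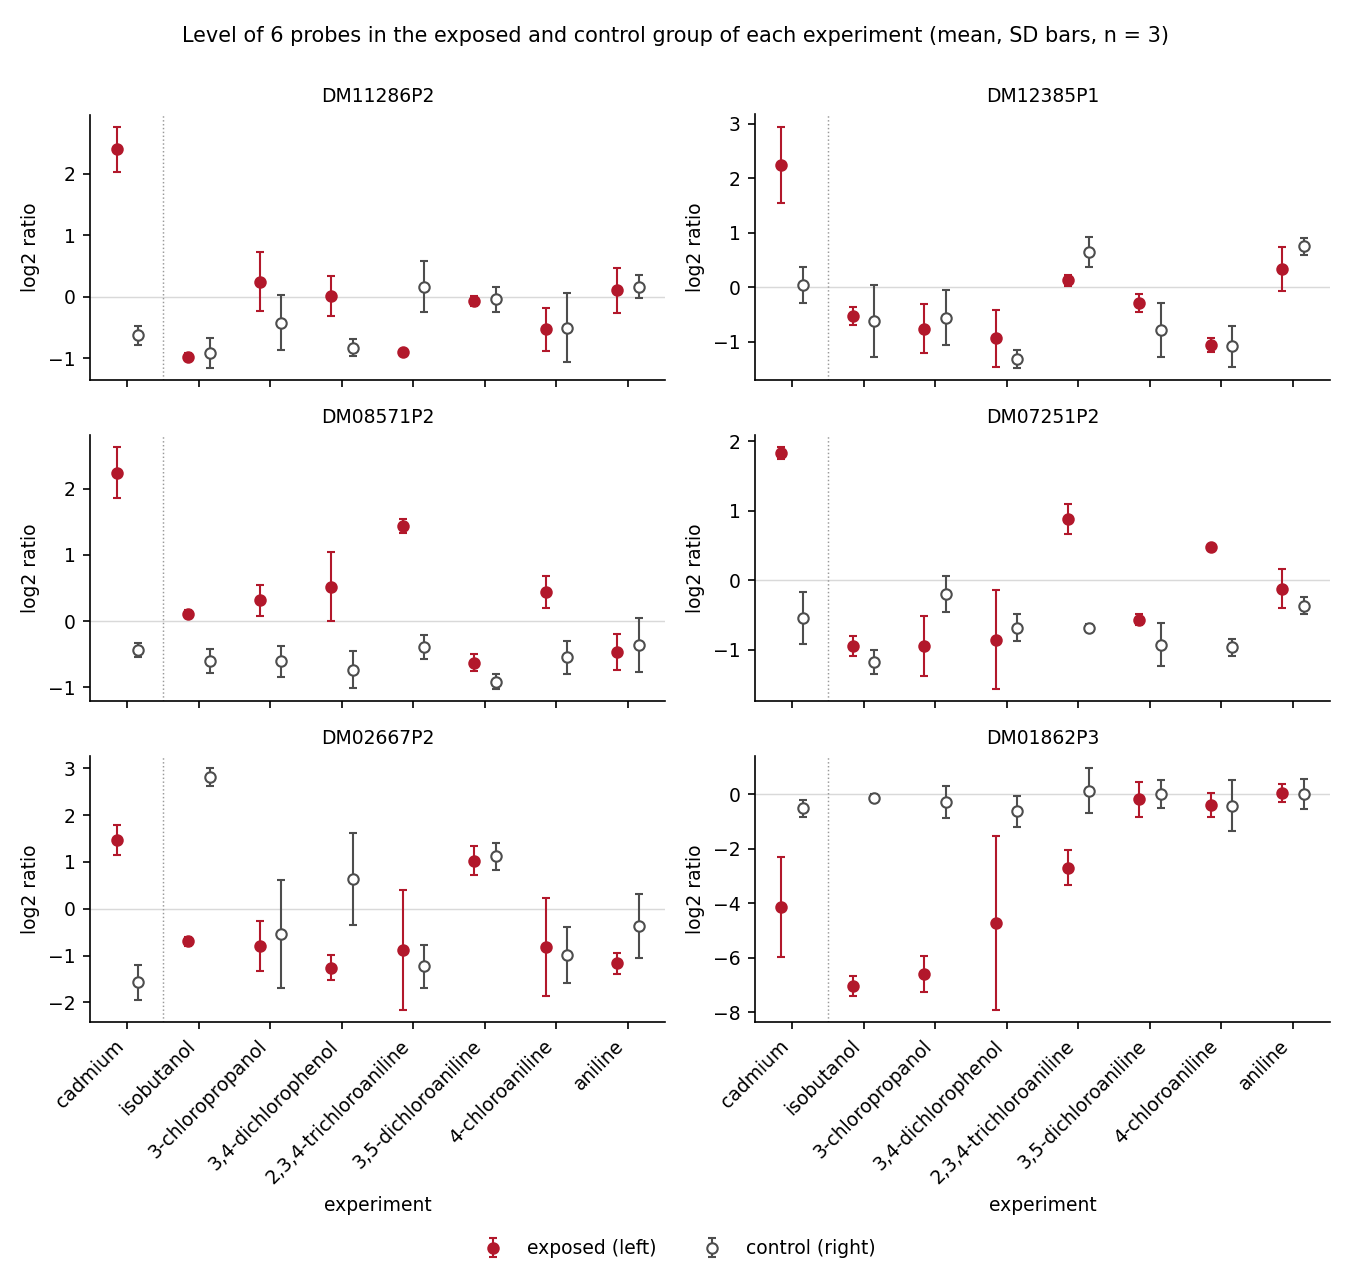
Mean log2 ratio to the common reference in the exposed (filled, left) and control (open, right) group of each of the 8 experiments for 6 probes, with SD bars over 3 arrays. Cadmium-exposed animals have the highest level in DM11286P2, DM12385P1, DM08571P2 and DM07251P2, and the cadmium controls are the lowest group in DM02667P2. The mean of DM01862P3 is low in 5 of the exposed groups, with an SD of 3.19 for 3,4-dichlorophenol.

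The other opposing probes that follow changed less with cadmium. Probe DM01145P3 had 0.25, 0.71 and 0.25 in exposed animals and -1.11, -1.52 and -1.48 in controls, a rise of 1.91 ± 0.39 with cadmium (adjusted p = 0.0021). With isobutanol it fell by 1.36 ± 0.39 (adjusted p = 0.0173). As for DM02667P2, the cadmium controls of DM01145P3 had the lowest mean of the 16 groups and the isobutanol controls the highest, at -1.37 and 3.19. Probe DM01619P2 had -1.52, -2.37 and -1.97 in exposed animals and 0.00, -1.001 and -0.53 in controls, a change of -1.50 ± 0.26 with cadmium (adjusted p = 0.000192). It rose by 1.28 ± 0.26 with isobutanol (adjusted p = 0.000523) and fell by 0.91 ± 0.26 with 3-chloropropanol (adjusted p = 0.0195), so the 2 alcohols moved it in opposite directions. The cadmium call of DM01619P2 ended with quantile normalization (-0.86, adjusted p = 0.103), as did its difference from the mean of 7 (-0.89, adjusted p = 0.213). DM02411P2, which fell by 1.13 with cadmium, rose by 0.57 ± 0.13 with 2,3,4-trichloroaniline (adjusted p = 0.00991). The difference of DM02411P2 from the mean of 7 was -1.37 ± 0.14 (adjusted p = 5.88e-08), and it kept its call under every alternative that was run. The one probe with 3 opposing chemicals was DM07431P1, named after its values were seen. It had -1.09, -0.50 and -0.9997 in exposed animals and 0.71, 0.54 and 0.33 in controls, a change of -1.32 ± 0.23 with cadmium (adjusted p = 0.000343), and it rose with isobutanol, 3-chloropropanol and 2,3,4-trichloroaniline by 1.37, 0.74 and 1.46.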

How the data were processed

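The authors deposited 1 table of log2 ratios for 48 two-colour arrays, each with a sample and a common reference in opposite dyes. That the scale is log2 was inferred from the values and the array type. Per the labels' protocols, 100 ng RNA was labelled with a two-colour Agilent kit, while the background correction, the normalization and any probe filter were not given in the sources used here. Values of 6006 probes whose number begins with DM were used, with 0 missing, and 27 control rows were set aside. A table of ratios holds no brightness, which leaves the background level of each probe unknown, and the number of arrays limits the precision.

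Arrays of opposite dye within a group correlated at a median r of 0.44, with a lowest r of -0.27 over all groups and 0.46 to 0.75 in the cadmium groups. From the median, swapped arrays were taken as turned already and the table was used as deposited. The sign of a spike-in row also followed the dye of the sample on all 48 arrays. A row with a fixed ratio of the dyes does so once swapped arrays are turned. Among 510 probes with an SD of at least 0.6 the median log2 of the mean ratio was -0.001 as deposited, against 0.47 after turning the sign, the basis for reading it as sample over reference. Same-dye arrays form 552 pairs, 5 of them with r under -0.3 and the lowest at -0.41. The pairs belong to any of the 16 groups and the labels state the dyes, so the direction was kept.

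The model was fitted to all 48 arrays by limma 3.58.1 (R 4.3.3), with 16 group means and a dye term (31 residual and 3.65 prior degrees of freedom). Tests are two-sided and adjusted by Benjamini-Hochberg within each comparison at 0.05. The comparisons were each chemical against its own control, cadmium minus the mean of the 7 organic changes, and cadmium minus each. The fit was tested on simulated data. Alternatives were no dye term, the 6 cadmium arrays alone, other scalings, array weights, the more variable probes, a replicate block, leaving out each cadmium array and leaving out 3-chloropropanol.

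Named probes are the 10 largest rises and falls with groups that do not overlap, the 3 smallest adjusted p each way, the 5 largest each way among those seen with cadmium alone and among those shared with the most organic chemicals, 5 opposing probes, and the 3 on either side of the threshold. The probes and lists were chosen with earlier results of these data known. The plots were made by matplotlib 3.10.9 under Python 3.11.15.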

Additional observations from a re-analysis of the deposited data

Results flagged for a closer look

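For 19 named probes the cadmium change differed from the mean of the 7 organic changes in the same fit. The difference, cadmium minus that mean on the log2 scale, was 3.98 for DM02667P2, 2.97 for DM11286P2, 1.83 for DM08571P2, 1.86 for DM07251P2 and 1.59 for DM11724P1 among the large rises. Among rises seen with cadmium alone it was 2.21 for DM03150P1, 2.19 for DM12385P1, 2.10 for DM08081P2, 1.82 for DM13929P3 and 1.74 for DM02238P2. Among falls seen with cadmium alone it was -1.72 for DM01654P4, -0.95 for DM08107P2, -0.60 for DM06227P1 and -0.53 for DM07499P1. For the falls shared with 3-chloropropanol and 3,4-dichlorophenol it was -1.73 for DM01575P4 and -1.76 for DM02404P3. For the remaining opposing probes it was 1.89 for DM01145P3, -1.61 for DM01619P2 and -1.37 for DM02411P2. The difference of DM01145P3 was lost in 4 of 16 alternatives. Its adjusted p was 0.0668 without the dye covariate, 0.0852 without exposed sample 2, 0.0860 without control sample 2 and 0.0755 without control sample 3. No cause of any of these differences was tested.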

How the results depend on the processing

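The number of arrays limits these counts, and no named probe changed sign where it was called. Named probes kept their calls in 496 of 569 repeats of the change with cadmium and in 259 of 304 repeats of the difference from the mean of 7. Array weights gave 678 probes called with cadmium, 356 differing from the mean of 7, 3098 differing from at least 1 of 7, 486 shared, 170 opposite, 114 with none of 7, 65 with cadmium alone, 312 with only the exposed level outside the other controls and 672 with 1 sign in both dyes; the highest weight was 3.31, for exposed sample 2. Scaling to the same median absolute value, chosen after seeing the data, gave 320, 143, 169 with none, 79 alone, 154 by position and 319 by dye. Scaling to the same SD gave 60 shared, 8 opposite and 55 by position. Quantile normalization gave 30 differing from the mean, 73 shared, 9 opposite and 75 with none. Without the dye term 35 differed from the mean, and without the 3-chloropropanol experiment 85 did, with 29 alone. Requiring an unadjusted p of at least 0.05 with all 7 gave 20 with none and 11 alone. Leaving out 1 cadmium array gave 114 to 159 called, 28 to 51 differing from the mean, 200 to 273 from at least 1 of 7, 76 to 111 shared, 12 to 16 opposite, 23 to 41 with none (28 without control sample 3), 6 to 18 alone, 69 to 93 by position and 125 to 159 by dye. Same-numbered samples deviated together at r of 0.38, 0.30 and -0.11, and at 0.28, 0.03 and 0.03 with the dye effect removed (the third pair differs in dye). Differently numbered samples were not compared, so these values do not settle whether the numbers pair the samples, and the main fit did not pair them. A replicate block gave 160 called and 10 opposite.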
